A study of Mus musculus with 15 samples.

Results

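The 36 genes described here carry glucose through glycolysis, lactate exchange, the entry of pyruvate into mitochondria and the pentose phosphate pathway. They were taken by gene name from a table of 32434 entries, and all 36 were found in it. The list was drawn up with earlier results of these data known. The table spells them in capitals (SLC16A3, LDHB, HK2, PFKM), and mouse symbols (Slc16a3, Ldhb, Hk2, Pfkm) are used below. The RNA-seq libraries came from lines of mouse myeloma, the plasma cell cancer, named IL6Myc-1 to IL6Myc-5 (5 in all), each of genotype IL6Myc and each with 3 libraries that the labels call technical replicates. There was no normal plasma cell, no untransformed control and no labelled treatment among the groups, so the lines can be compared only among themselves. The labels give neither the age of the mice nor the promoter or cell type that drives a transgene, and each line is a single biological unit. The p-values below therefore measure how far technical replicates spread, and say nothing of the spread between independently derived tumours.

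The libraries held 19068543 to 41165599 estimated counts each, and CPM below is a count divided by its library size, TMM-normalised, and brought to a common total. Scaling by library totals alone lowers the levels of IL6Myc-2 and changes the line with the highest level for 11 of the 36 members and that with the lowest for 6, which is given below as the value on library totals where it touches a result. The 9 plasma cell markers, Sdc1, Xbp1, Irf4, Prdm1, Jchain, Igkc, Mzb1, Tnfrsf17 and Cd38, each reached 1 CPM and summed to 25095 CPM in the lowest and 70633 CPM in the highest library. The summed levels of the marker lists of other cells lay far below that in each library, at 1.11 to 11.9 CPM for 7 myeloid, 0.743 to 11.8 CPM for 6 T and NK cell, 0 to 0.111 CPM for 4 erythroid and 14.3 to 27.2 CPM for 5 stromal and endothelial markers. S100a8, Gzmb, Alas2 and Cdh5 were among those with 0 counts in every library. Those that reached 1 CPM in any library were Csf1r, Itgam, Cd3d, Cd4 and Pecam1. Pecam1, with line means of 14.3 to 26.3 CPM, made up nearly all of the stromal and endothelial sum. The lowest and highest libraries of the plasma cell list belonged to IL6Myc-1 and IL6Myc-2, where Igkc alone averaged 15172 and 53605 CPM. Taken singly, the markers did not share this order. IL6Myc-2 was the highest line for Jchain, Igkc and Mzb1 and the lowest for Sdc1, Xbp1, Prdm1 and Tnfrsf17.

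Glycolysis splits a hexose into pyruvate through a chain of cytosolic enzymes, most of them encoded by several genes whose products (isozymes) catalyse the same step with different regulation. Lactate dehydrogenase turns pyruvate into lactate, monocarboxylate carriers move lactate across the plasma membrane, and pyruvate dehydrogenase sends pyruvate into mitochondria unless its kinases (the Pdk enzymes) switch it off. The pentose phosphate pathway branches off after hexokinase and yields NADPH and ribose phosphate. Plasma cells use glucose both as fuel and for the sugars of antibodies, and many tumour cells take up glucose and release lactate in the presence of oxygen. MYC and the hypoxia-inducible factors are known transcriptional activators of many of these genes.

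The promoters of 4 genes are shown here for their link to the results below, 3 of genes that differed widely between lines (Slc16a3, Ldhb and Hk2) and that of Ldha as the abundant partner of Ldhb. Each is the 250 bases before the annotated start in RefSeq's GRCm38.p6 assembly, read 5′ to 3′ on the gene's strand: chr11:120948817-120949066 on the plus strand for Slc16a3, chr7:46845554-46845803 on the plus strand for Ldha (the first of its annotated starts), chr6:142507958-142508207 on the minus strand for Ldhb and chr6:82774455-82774704 on the minus strand for Hk2. The assembly serves here for the sequences and is older than the GRCm39 build named in the submitters' processing notes. Capitals mark ACGTG, a form of the core letters bound by hypoxia-inducible factors, on either strand (its reverse complement is CACGT). They so also mark CACGTG, the E-box letters bound by MYC with MAX. Other forms of the core, such as GCGTG, were neither marked nor counted, and the Ldhb window holds that form.
Slc16a3: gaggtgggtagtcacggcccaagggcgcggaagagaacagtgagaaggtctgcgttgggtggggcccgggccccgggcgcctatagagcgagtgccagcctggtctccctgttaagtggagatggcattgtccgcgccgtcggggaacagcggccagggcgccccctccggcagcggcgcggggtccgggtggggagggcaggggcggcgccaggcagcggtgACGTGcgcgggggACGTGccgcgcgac
Ldha: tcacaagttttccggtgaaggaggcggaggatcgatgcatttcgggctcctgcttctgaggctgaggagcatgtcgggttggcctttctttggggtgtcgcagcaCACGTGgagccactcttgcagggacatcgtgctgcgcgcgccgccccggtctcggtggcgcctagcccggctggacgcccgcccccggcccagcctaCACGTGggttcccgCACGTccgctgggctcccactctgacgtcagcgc
Ldhb: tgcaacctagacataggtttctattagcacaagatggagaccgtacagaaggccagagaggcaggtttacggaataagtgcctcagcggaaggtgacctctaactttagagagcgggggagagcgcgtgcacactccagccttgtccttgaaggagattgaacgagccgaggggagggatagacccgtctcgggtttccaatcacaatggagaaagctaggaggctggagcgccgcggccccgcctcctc
Hk2: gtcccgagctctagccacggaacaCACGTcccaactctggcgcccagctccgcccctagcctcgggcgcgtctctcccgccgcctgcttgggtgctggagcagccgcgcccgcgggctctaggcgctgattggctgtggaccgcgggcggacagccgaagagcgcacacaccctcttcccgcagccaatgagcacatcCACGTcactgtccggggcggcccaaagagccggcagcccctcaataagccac

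The Slc16a3 window held 2 matches to ACGTG and the Hk2 window also 2, and the Ldhb window held 0. In the Ldha window there were 5 matches, of which 4 lie in 2 copies of CACGTG, a letter pattern that reads the same on both strands and counts once on each. A window was found for 35 of the 36 members, the exception being Slc2a3, and ACGTG stood in 20 of their 52 windows (38.5%), against 16.6% of all 32851 windows of this length. CACGTG stood in 6 of 52 windows (11.5%), against 6.02% of all. The members' windows also held more CpG pairs, with a median of 14 against 6 over all windows. These matches are a description of letters, and no binding was measured.

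Of the 36 members, 35 reached 1 CPM in at least 3 libraries and were tested. Slc16a3 and Ldhb did so in 9 of the 15 libraries and entered through the lines in which they were high, whereas the other 33 reached it in all 15. Eno2, the enolase known from neurons, was not tested, with 0.0504 CPM (4 counts) in IL6Myc-4 and 0.638 CPM (46 counts) in IL6Myc-5 as its lowest and highest levels. Together the members took 1.02% ± 0.0118 (SD, n = 3) of the counts in IL6Myc-3, 1.15% ± 0.0126 in IL6Myc-2, 1.21% ± 0.0185 in IL6Myc-4, 1.26% ± 0.00286 in IL6Myc-1 and 1.47% ± 0.0455 in IL6Myc-5. In bulk RNA, fewer cells with a transcript and less of it per cell cannot be told apart.

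Of the 35 tested members, 14 differed among the lines (40.0%), and 32.1% of all 11773 tested genes did. A member was called when the quasi-likelihood F-test of edgeR gave a Benjamini-Hochberg adjusted p under 0.05 and its highest line exceeded its lowest by 1 log2 unit or more. The 14 were the carriers Slc2a3 and Slc16a3, the upper enzymes Hk2, Pfkm and Pfkfb3, the lower enzymes Aldoc, Gapdh, Pgk1 and Eno3, Ldhb, the kinases Pdk1, Pdk2 and Pdk3, and Rpia. With no limit on size all 35 members passed, as did 91.7% of all tested genes, since the technical spread was small. The median distance from the lowest to the highest line was 0.90 log2 units over the members and 0.70 over all tested genes. Where a line is set against the mean of the other 4 below, the same adjusted p and size were required, and these 5 comparisons share their libraries.

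**Figure D1:**
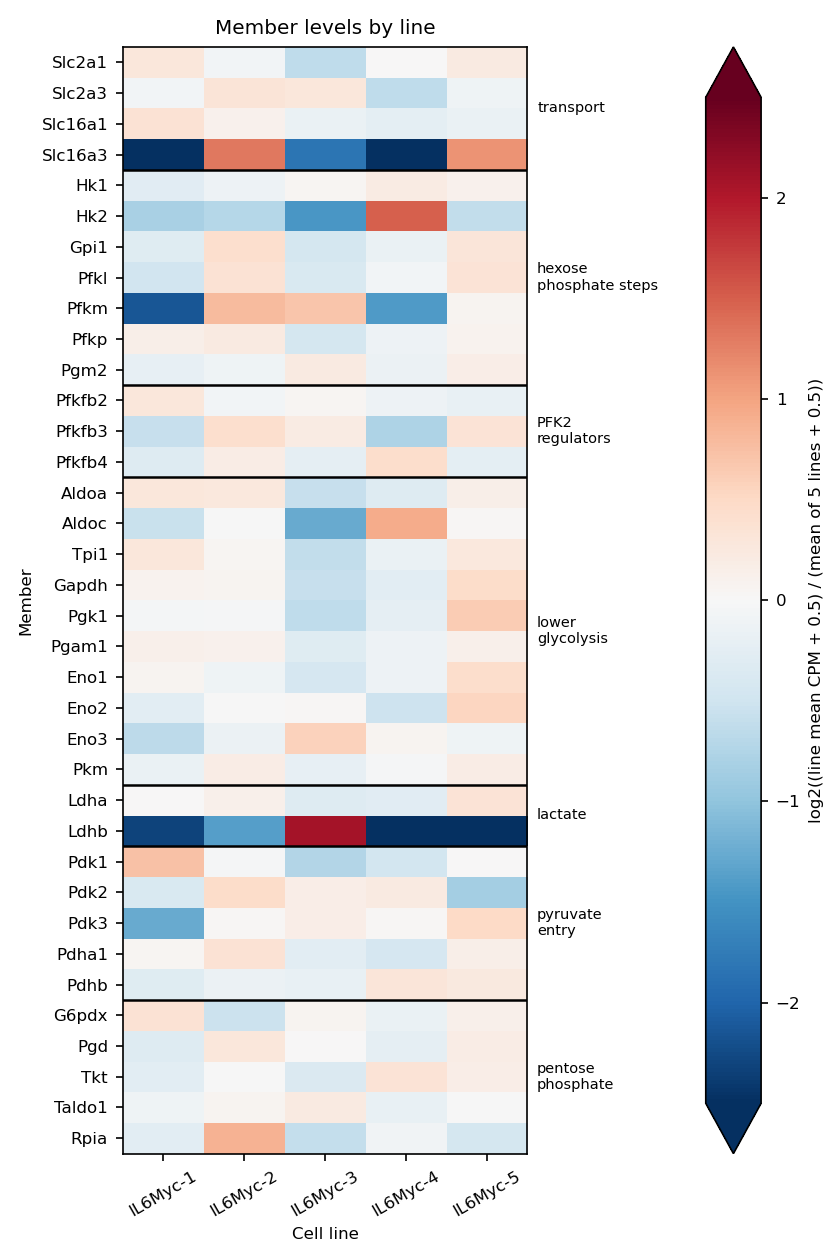
Mean level of each member in each of the 5 lines, with genes in rows grouped by their step and lines in columns. Colour is the log2 ratio of (line mean CPM + 0.5) to (mean of the 5 line means + 0.5), and single libraries are not drawn. Slc16a3, Ldhb, Hk2 and Pfkm are among the strongest colours. Most genes of lower glycolysis are pale blue in IL6Myc-3 and pale red to near white in IL6Myc-5.

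Slc16a3, which encodes the lactate exporter MCT4, was present in 3 lines and nearly without counts in the other 2. Its level was 61.9, 64.5 and 63.0 CPM in the libraries of IL6Myc-2, 61.5, 60.2 and 44.1 CPM in those of IL6Myc-5, and 6.60, 7.01 and 6.59 CPM in those of IL6Myc-3. IL6Myc-4 had 0 counts in all 3 libraries, which allows up to 0.0375 CPM (3 counts over the line), and IL6Myc-1 had 2 counts, both in 1 library, at 0, 0.0764 and 0 CPM. The libraries of IL6Myc-2 lay just above those of IL6Myc-5, although not on library totals, where their means were 53.9 and 54.7 CPM. Those of IL6Myc-3 lay apart from both and from the other lines. Against the floor of IL6Myc-4 the level was at least 1682-fold higher in IL6Myc-2, at least 1456-fold higher in IL6Myc-5 and at least 179-fold higher in IL6Myc-3. Between IL6Myc-3 and IL6Myc-1 the ratio was 304, with an exact 95% counting interval of 83.8 to 2516. IL6Myc-2 exceeded IL6Myc-3 by 3.23 ± 0.13 (SE) log2 units (edgeR adjusted p = 2.33e-11), and IL6Myc-5 did so 8.19-fold (edgeR adjusted p = 7.91e-11).

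Against the mean of the other 4 lines Slc16a3 was called higher in IL6Myc-2, IL6Myc-3 and IL6Myc-5 and lower in IL6Myc-4. The call in IL6Myc-3 was made against a mean that held lines with 2 and 0 counts, and it had a log2 difference of -0.01 (adjusted p = 0.936) with limma on log2(CPM + 1). The call in IL6Myc-4 was lost without replicate 2 of IL6Myc-1, the library that held the 2 counts (adjusted p = 1). In the lines with counts the level per kilobase of exon was 14.2 CPM in IL6Myc-2, and intervals and floors given here cover counting error only. A count of 0 does not show that the transcript is absent.

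Slc16a1, the gene of the carrier MCT1 that moves lactate in both directions, was measured in every line, with 46.7 ± 3.24 CPM in IL6Myc-4 as its lowest and 71.2 ± 1.25 CPM in IL6Myc-1 as its highest level. Its 3 libraries of IL6Myc-1 lay above the other 12, and it did not reach the size threshold among the lines. Slc2a1, the gene of the ubiquitous glucose transporter GLUT1, was at 51.5 ± 2.66 CPM in IL6Myc-3, where its libraries lay below all others, and at most 97.1 ± 6.28 CPM (IL6Myc-1). Slc2a3, for the high-affinity transporter GLUT3, was low throughout, at 3.08 ± 0.552 CPM in IL6Myc-4 and 6.43 ± 0.958 CPM in IL6Myc-2. That pair of lines differed by 1.06 ± 0.18 log2 units (edgeR adjusted p = 7.83e-05), and the libraries of IL6Myc-4 lay below the other 12. On library totals Slc2a3 was highest in IL6Myc-3 (6.59 CPM), with 5.49 CPM in IL6Myc-2 and 3.29 CPM in IL6Myc-4. With that scaling the libraries of IL6Myc-4 overlapped others for Slc2a3, and Slc16a1 was lowest in IL6Myc-5.

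Hk2, the inducible hexokinase that binds mitochondria, was high in a single line. It was measured at 251, 220 and 259 CPM in the libraries of IL6Myc-4, at 52.8, 42.2 and 51.3 CPM in IL6Myc-1, at 51.8, 49.9 and 56.3 CPM in IL6Myc-2 and at 59.1, 50.2 and 58.9 CPM in IL6Myc-5. The libraries of IL6Myc-3 were the lowest, at 32.1, 30.4 and 31.6 CPM. IL6Myc-4 lay above and IL6Myc-3 below all other libraries, while the 3 remaining lines overlapped. Against the mean of the other 4 lines the log2 difference was 2.40 ± 0.06 in IL6Myc-4 (edgeR adjusted p = 2.03e-15; also called against each other line singly, as were 1.33% of all tested genes) and -1.29 ± 0.07 in IL6Myc-3 (edgeR adjusted p = 3.38e-10). Hk1, the constitutive hexokinase, spanned a narrower range, with IL6Myc-1 at 36.2 ± 0.577 CPM and IL6Myc-4 at 50.8 ± 2.27 CPM (IL6Myc-2 was its lowest line on library totals). Per kilobase of exon Hk2 stood at 43.3 CPM and Hk1 at 10.5 CPM in IL6Myc-4, but at 5.59 and 9.36 CPM in IL6Myc-3, the line in which Hk1 was above Hk2.

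Pfkm, the muscle isozyme of phosphofructokinase, which commits sugar to glycolysis, divided the lines into higher and lower ones. Its libraries stood at 17.2, 18.6 and 18.3 CPM in IL6Myc-2, at 15.8, 17.4 and 16.9 CPM in IL6Myc-3 and at 11.4, 9.66 and 10.7 CPM in IL6Myc-5. In IL6Myc-4 they stood at 3.82, 3.09 and 3.57 CPM, and in IL6Myc-1 at 2.17, 2.29 and 1.30 CPM. IL6Myc-2 and IL6Myc-3 overlapped each other, and the other lines did not overlap with any. On library totals IL6Myc-3 lay above all others. It was called higher in IL6Myc-2 (log2 difference 1.60 ± 0.09, edgeR adjusted p = 1.7e-10) and IL6Myc-3 (1.47 ± 0.09, adjusted p = 9.63e-10). It was called lower in IL6Myc-1 (-2.38 ± 0.13, edgeR adjusted p = 6.33e-11) and IL6Myc-4 (-1.35 ± 0.12, adjusted p = 4.07e-08).

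Per kilobase of exon the liver and platelet isozymes, Pfkl and Pfkp, stood above Pfkm in each line, at 71.6 and 73.2 CPM against 6.01 CPM in IL6Myc-2, and they varied less. Pfkl had its lowest level in IL6Myc-1 (148 ± 3.46 CPM) and Pfkp in IL6Myc-3 (199 ± 5.93 CPM), and both were highest in IL6Myc-2 (267 ± 8.39 and 315 ± 6.77 CPM). On library totals Pfkl was highest in IL6Myc-5 (259 CPM, with 228 CPM in IL6Myc-2) and Pfkp in IL6Myc-1 (312 CPM, with 269 CPM in IL6Myc-2). Gpi1, the isomerase between both kinase steps, was lowest in IL6Myc-3 (342 ± 26.9 CPM) and highest in IL6Myc-2 (621 ± 17.6 CPM), or in IL6Myc-5 on library totals. The entry named Pgm2, at 9.33 to 12.7 CPM, is ambiguous because the mouse symbols Pgm1 and Pgm2 have been exchanged between annotations. Reads of Pfkp are also uncertain to the extent that a neighbouring gene on the opposite strand, Pitrm1, covers 17.4% of its exons. None of Pfkl, Pfkp, Gpi1 and Pgm2 reached the size threshold among the lines.

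Pfkfb3 makes fructose 2,6-bisphosphate, the activator of phosphofructokinase. Its level was 12.2, 10.7 and 12.4 CPM in the libraries of IL6Myc-1 and 10.1, 10.4 and 10.2 CPM in those of IL6Myc-4, and lay between 20.1 and 25.1 CPM in the 9 libraries of the other 3 lines. The lines thus formed a lower pair and a higher trio with no library between 12.4 and 20.1 CPM, and the pair was the one that also held the low Pfkm and Slc16a3 levels. IL6Myc-2 exceeded IL6Myc-4 by 1.23 ± 0.08 log2 units (edgeR adjusted p = 1.39e-09). On library totals the means of these lines were 20.5 and 10.9 CPM. Pfkfb3 was then highest in IL6Myc-5, at 22.5 CPM, and the libraries of IL6Myc-4 no longer lay below all others. The other bifunctional enzymes did not reach the size threshold: Pfkfb2 lay between 11.1 ± 1.35 and 15.5 ± 1.39 CPM, and Pfkfb4 between 1.46 ± 0.363 and 2.81 ± 0.403 CPM.

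**Figure D2:**
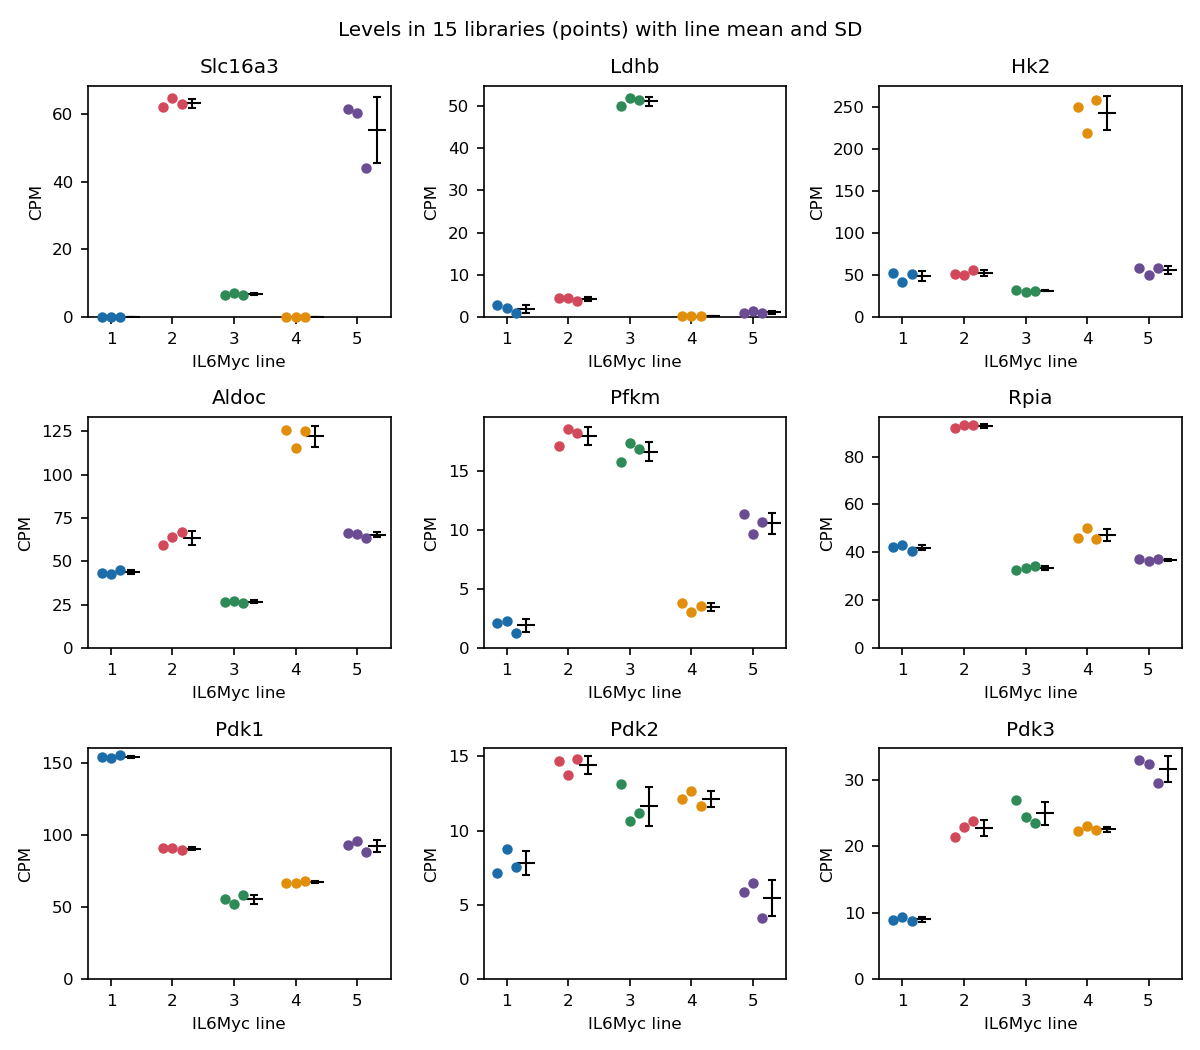
CPM of the 9 members called in at least 1 line against the mean of the other 4, on linear axes from 0, with a point for each library and a bar for the mean of each line ± SD over 3 libraries. IL6Myc-4 stands alone for Hk2, IL6Myc-3 for Ldhb, IL6Myc-2 for Rpia and IL6Myc-1 for Pdk1 and, at the low end, for Pdk3.

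Lower glycolysis runs from aldolase to pyruvate kinase. Summed over its 10 genes it came to 7001 ± 53.2 CPM in IL6Myc-3, 8292 ± 219 CPM in IL6Myc-4, 9004 ± 122 CPM in IL6Myc-1, 9752 ± 169 CPM in IL6Myc-2 and 11101 ± 394 CPM in IL6Myc-5. On library totals IL6Myc-2 fell from the second highest sum to the second lowest, at 8329 CPM beside 8870 CPM in IL6Myc-4 and 9401 CPM in IL6Myc-1, and IL6Myc-3 and IL6Myc-5 kept the ends, at 7423 and 10975 CPM. At an adjusted p under 0.05 with no limit on size (edgeR), 8 of the 9 tested genes were lower and 1, Eno3, higher in IL6Myc-3 than in the mean of the other lines, with a median log2 difference of -0.66. In IL6Myc-5 8 were higher and 0 lower, with a median of 0.25. In IL6Myc-4 6 were lower and 2 higher (median -0.14), where 27.4% and 28.6% of all tested genes were. In IL6Myc-2 6 were higher and 2 lower (median 0.13), against 33.4% and 32.2% of all. In IL6Myc-1 5 were higher and 3 lower (median 0.13), against 34.3% and 33.9%. All these counts are with TMM scaling. Over all tested genes the median was 0.00 in IL6Myc-3 and in IL6Myc-5, and 26.4% were lower in IL6Myc-3 and 28.9% higher in IL6Myc-5 by the same rule. These comparisons share their libraries, each line being part of the mean that another is set against.

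Pgk1, phosphoglycerate kinase, an ATP-yielding step, was at 810, 825 and 861 CPM in the libraries of IL6Myc-3 and at 1995, 1953 and 2149 CPM in those of IL6Myc-5. The other lines held 1098 to 1294 CPM, so that IL6Myc-3 lay below and IL6Myc-5 above all other libraries. The direct difference was 1.29 ± 0.04 log2 units (edgeR adjusted p = 1.11e-13). Gapdh, glyceraldehyde phosphate dehydrogenase, had the same order at its ends, with 705, 683 and 648 CPM in IL6Myc-3 and 1339, 1422 and 1408 CPM in IL6Myc-5, a difference of 1.03 ± 0.07 (edgeR adjusted p = 2.19e-09). Gapdh is often used to normalise other measurements, and here its line means ranged from 679 to 1390 CPM.

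Aldoa, Tpi1, Pgam1 and Pkm, the main aldolase, triose phosphate isomerase, phosphoglycerate mutase and pyruvate kinase, were also lowest in IL6Myc-3 but did not reach the size threshold. Aldoa was at 648 ± 4.02 CPM there and at most 1172 ± 13.5 CPM elsewhere, and Tpi1 at 481 ± 9.14 CPM and at most 908 ± 7.88 CPM, both with their highest level in IL6Myc-1. Pgam1 ran from 520.4 ± 2.81 to 708 ± 20.1 CPM, and Pkm from 3059.7 ± 42.9 to 4037 ± 68.6 CPM, with the libraries of IL6Myc-3 no longer below all others for Pkm and Eno1 on library totals. Reads of Eno1, the common enolase, are uncertain because the near-identical copy Eno1b takes part of them. Eno1 made up 42.9% to 45.3% of the sum of both entries, and that sum was lowest in IL6Myc-3 at 901 ± 7.83 CPM and highest in IL6Myc-5 at 1569 ± 59.9 CPM.

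Eno3, the muscle enolase, went the other way. Its libraries stood at 357, 365 and 380 CPM in IL6Myc-3, above all others, and at 152, 159 and 162 CPM in IL6Myc-1, below all others. The difference between these lines was 1.22 ± 0.05 log2 units (edgeR adjusted p = 2.7e-12). Aldoc, the aldolase best known from brain, was at 126, 115 and 125 CPM in IL6Myc-4 and at 26.7, 27.4 and 25.9 CPM in IL6Myc-3. In between lay IL6Myc-1 at 43.5, 42.9 and 44.9 CPM, and IL6Myc-2 at 59.2, 64.2 and 66.9 CPM overlapping IL6Myc-5 at 66.5, 66.0 and 63.6 CPM. Aldoc was called higher in IL6Myc-4 (log2 difference 1.38 ± 0.04, edgeR adjusted p = 7.42e-15) and lower in IL6Myc-3 (-1.36 ± 0.04, adjusted p = 3.35e-13), at the same ends as Hk2.

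**Figure D3:**
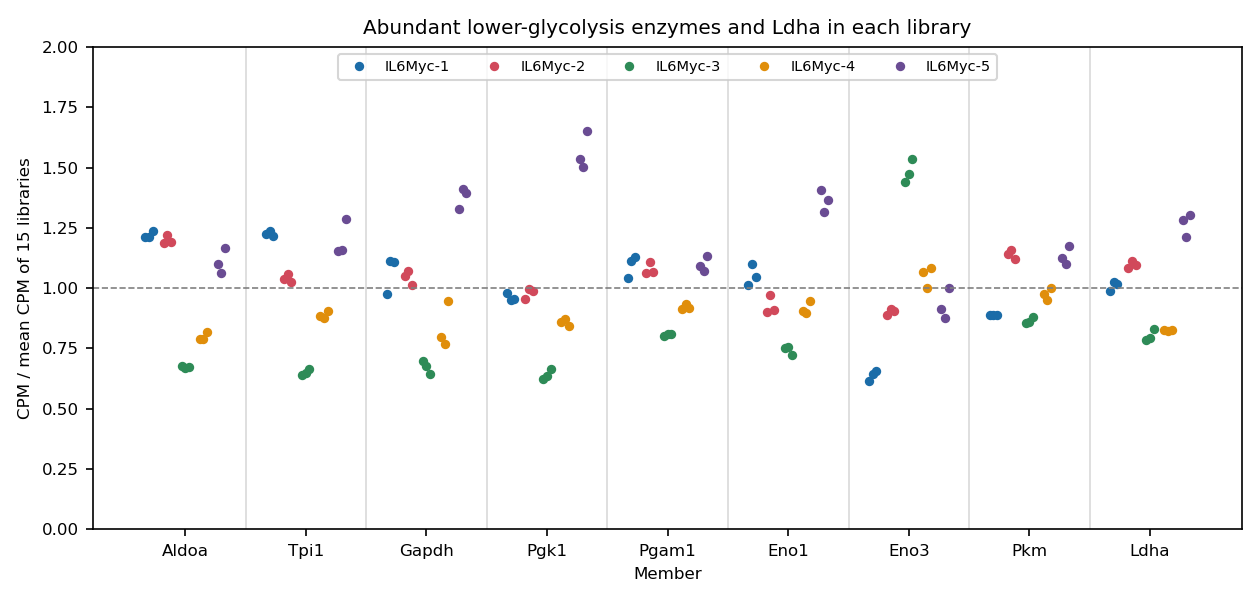
Levels of abundant lower-glycolysis members and Ldha, as CPM divided by the mean CPM of the gene over the 15 libraries. The axis is linear from 0, with a point for each library. IL6Myc-3 is the lowest line for Pgk1 (810 to 861 CPM before the division) and Gapdh (648 to 705 CPM), and IL6Myc-5 the highest for both.

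Ldhb, the lactate dehydrogenase subunit typical of heart, was the tested member with counts in every line that differed most. The libraries of IL6Myc-3 held 49.9, 51.9 and 51.3 CPM, those of IL6Myc-2 4.53, 4.42 and 3.74 CPM, and those of IL6Myc-1 2.79, 2.14 and 0.912 CPM. IL6Myc-5 held 0.994, 1.54 and 0.910 CPM, overlapping IL6Myc-1, and IL6Myc-4 held 0.357, 0.193 and 0.192 CPM, below all others. The mean of IL6Myc-3 was 12.1-fold above the next line and 206-fold above IL6Myc-4. Against the mean of the other 4 lines the log2 difference was 5.34 ± 0.14 in IL6Myc-3 (edgeR adjusted p = 1.69e-14), -4.22 ± 0.31 in IL6Myc-4 (adjusted p = 5.95e-09) and -1.55 ± 0.27 in IL6Myc-5 (adjusted p = 1.3e-04). Among all members, it was the one set apart from every other line singly in 2 lines, higher in IL6Myc-3 (where 0.612% of all tested genes were) and lower in IL6Myc-4 (1.37%).

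Ldha, the subunit typical of muscle and of most tumours, exceeded Ldhb per kilobase in each line, with 431 against 39.1 CPM in IL6Myc-3 as the closest, and did not reach the size threshold. It was at 816 ± 25.3 CPM in IL6Myc-3, 840 ± 2.05 CPM in IL6Myc-4, 1030.1 ± 20.1 CPM in IL6Myc-1, 1118 ± 15.6 CPM in IL6Myc-2 and 1291 ± 50.1 CPM in IL6Myc-5. Its libraries of IL6Myc-5 lay above the other 12. IL6Myc-3, the line highest in Ldhb, thus had the lowest mean of Ldha, together with an intermediate level of the lactate exporter gene Slc16a3. Its Ldha libraries, at 797, 806 and 845 CPM, overlapped those of IL6Myc-4, the line lowest in Ldhb, at 842, 838 and 840 CPM.

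Among the 3 pyruvate dehydrogenase kinases that are members, each of which phosphorylates and inactivates the complex, the line with the most Pdk1 had the least Pdk3. At the other end the lines differed, IL6Myc-3 having the least Pdk1 and IL6Myc-5 the most Pdk3. Pdk1, a known hypoxia-inducible target, stood at 154, 153 and 155 CPM in the libraries of IL6Myc-1, at 91.1, 91.0 and 89.2 CPM in IL6Myc-2, at 93.1, 96.1 and 88.0 CPM in IL6Myc-5, at 66.9, 66.6 and 67.9 CPM in IL6Myc-4 and at 55.2, 52.3 and 58.5 CPM in IL6Myc-3. IL6Myc-1 lay above and IL6Myc-3 below all others, and IL6Myc-2 and IL6Myc-5 overlapped. The log2 difference of IL6Myc-1 from the mean of the other 4 lines was 1.04 ± 0.03 (edgeR adjusted p = 3.67e-14), and it was 1.67-fold above the next line, short of the size threshold against IL6Myc-2 and IL6Myc-5 singly.

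Pdk3 showed 8.98, 9.32 and 8.69 CPM in IL6Myc-1, below all other libraries, and 29.5 to 33.1 CPM in IL6Myc-5, above all others. The 9 libraries of IL6Myc-2, IL6Myc-3 and IL6Myc-4 lay between 21.5 and 26.9 CPM. It was called lower in IL6Myc-1 (log2 difference -1.49 ± 0.06, edgeR adjusted p = 2.33e-12), also against each other line singly (as were 3.2% of all tested genes), 2.51-fold below the nearest of them. Pdk2 was at 5.85, 6.47 and 4.13 CPM in IL6Myc-5, below all other libraries, at 7.16, 8.75 and 7.58 CPM in IL6Myc-1 and between 10.6 and 14.8 CPM in the other lines. The call of Pdk2 in IL6Myc-5 (-1.05 ± 0.12, edgeR adjusted p = 1.08e-06) missed the size threshold without replicate 3 of that line, at -0.87, and with limma on log2(CPM + 1), at -0.93.

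The subunits of the dehydrogenase itself did not reach the size threshold. Pdha1, the catalytic alpha subunit, was at 118 ± 3.03 CPM in IL6Myc-4, below all other libraries, and at 204 ± 4.83 CPM in IL6Myc-2, above all others. Pdhb, the beta subunit, had the opposite end in IL6Myc-4, with 118 ± 1.94 CPM above all other libraries, and was lowest in IL6Myc-1 at 78.2 ± 1.33 CPM. On library totals IL6Myc-2 no longer lay above all others for Pdha1 and was the lowest line for Pdhb, at 73.8 CPM. A neighbour on the opposite strand, Map3k15, covers 21.2% of the exons of Pdha1, and the strand setting of the counting is not given in the sources used here.

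In the pentose phosphate pathway Rpia, which makes ribose 5-phosphate for nucleotides, was high in IL6Myc-2. It stood at 92.0, 93.3 and 93.1 CPM there, at 42.1, 43.2 and 40.7 CPM in IL6Myc-1, at 46.0, 50.2 and 45.7 CPM in IL6Myc-4, at 37.1, 36.5 and 37.2 CPM in IL6Myc-5 and at 32.7, 33.4 and 34.2 CPM in IL6Myc-3. None of these lines overlapped, IL6Myc-2 lying 1.96-fold above the next. The log2 difference from the mean of the other 4 lines was 1.23 ± 0.03 (edgeR adjusted p = 8.72e-15). It was 0.94 when libraries were scaled by their totals alone, short of the size threshold. The summed myeloid and T and NK cell markers were also highest in IL6Myc-2, at 11.5 to 11.9 and 9.02 to 11.8 CPM against at most 5.41 and 6.61 CPM in other lines. Itgam made up 11.6 CPM of the first sum and Cd3d and Cd4 7.60 and 2.77 CPM of the second, while Lyz2, Cd14, S100a8, S100a9, Cd8a, Nkg7 and Gzmb were at 0 counts in that line.

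G6pdx, glucose 6-phosphate dehydrogenase, the NADPH-yielding entry to the pathway, was lowest in IL6Myc-2 at 60.6 ± 1.96 CPM and highest in IL6Myc-1 at 113 ± 2.16 CPM, and the libraries of both lines lay outside all others. Pgd, which yields NADPH at a later step, had these lines at the opposite ends, with 85.8 ± 2.12 CPM in IL6Myc-2 and 56.1 ± 1.98 CPM in IL6Myc-1, again with no overlap, although on library totals Pgd was highest in IL6Myc-5. Tkt, transketolase, was highest in IL6Myc-4 at 257 ± 5.81 CPM, and Taldo1, transaldolase, highest in IL6Myc-3 at 142 ± 2.72 CPM and lowest in IL6Myc-4 at 107 ± 2.35 CPM, or in IL6Myc-2 on library totals. None of G6pdx, Pgd, Tkt and Taldo1 reached the size threshold among the lines.

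The balance between isozymes of the same step differed by line, as log2 ratios of (CPM + 0.5) within each library, given as mean ± SD over 3 libraries with no test. Hk2 over Hk1 was 2.24 ± 0.08 in IL6Myc-4 and -0.53 ± 0.07 in IL6Myc-3, with 0.24 to 0.42 in the other lines. Ldhb over Ldha was -3.99 in IL6Myc-3 and lay between -10.14 (IL6Myc-4) and -7.89 (IL6Myc-2) in the others. Pfkm over Pfkl was -5.97 in IL6Myc-1 and -5.64 in IL6Myc-4, against -3.22 in IL6Myc-3, -3.85 in IL6Myc-2 and -4.56 in IL6Myc-5. Pdk3 over Pdk1 was -4.02 in IL6Myc-1 and between -1.97 and -1.13 elsewhere. These ratios compare the lines for a given pair, not the levels of unequally long transcripts.

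**Figure D4:**
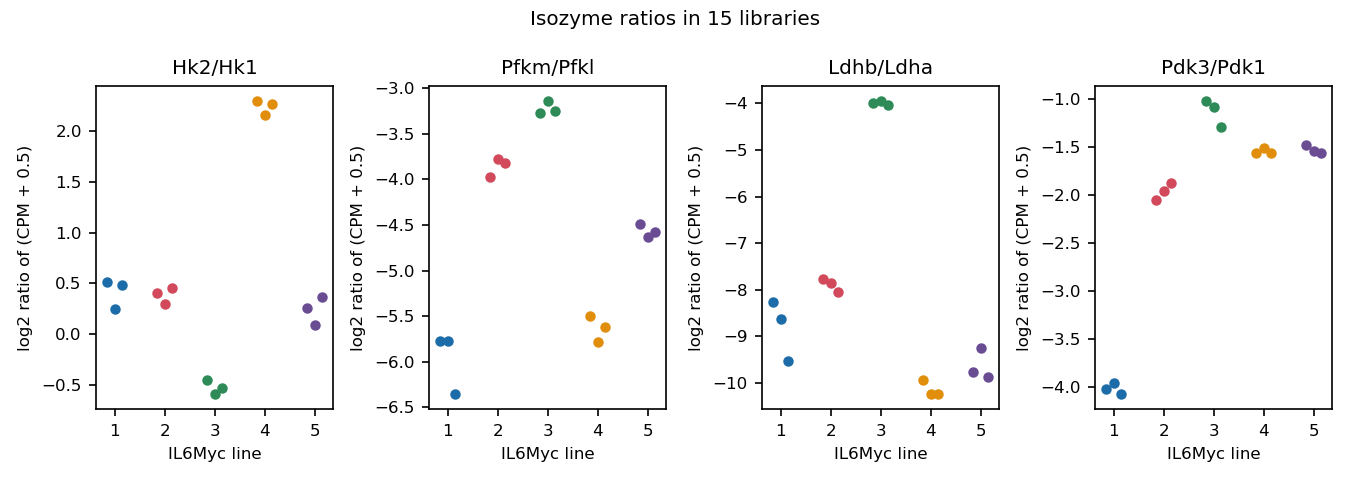
Log2 ratio of CPM + 0.5 between isozyme pairs in each of the 15 libraries, with a point for each library. Values in brackets are line means. The Hk2 to Hk1 ratio is highest in IL6Myc-4 (2.24), the Ldhb to Ldha ratio in IL6Myc-3 (-3.99), and the Pdk3 to Pdk1 ratio is lowest in IL6Myc-1 (-4.02).

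Compared per kilobase of merged exon, for the 35 members with a single match in the GENCODE M21 annotation (Aldoa had 2 and was left out), the members spanned a wide range. As a mean over the 5 lines Pkm was at 1362 CPM per kilobase, Pgk1 at 713, Gapdh at 675, Ldha at 538, Tpi1 at 420 and Pgam1 at 363. At the other end stood Pfkfb4 at 0.558 and Eno2 at 0.102 CPM per kilobase, and Aldoc was at 21.6, so that isozymes of the lower steps lay at both ends. On the genome, 7 of the 36 members lie on chromosome 6 (Slc2a3, Hk2, Tpi1, Gapdh, Eno2, Ldhb and Rpia), 4 on chromosome 11 and 4 on the X chromosome (Pgk1, Pdk3, Pdha1 and G6pdx). Those on chromosome 6 were highest in IL6Myc-2 for Slc2a3 (IL6Myc-3 on library totals) and Rpia, in IL6Myc-5 for Gapdh and Eno2, in IL6Myc-4 for Hk2, in IL6Myc-3 for Ldhb and in IL6Myc-1 for Tpi1.

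Set against the mean of the other 4 lines, each line had 3 to 5 called members. In IL6Myc-1 1 of 35 was higher (Pdk1) and 2 lower (Pfkm and Pdk3), where 4.39% and 8.11% of all tested genes were. In IL6Myc-2 3 were higher (Slc16a3, Pfkm and Rpia) and 0 lower, against 8.6% and 4.08%, and 23 and 6 when the size threshold was dropped. In IL6Myc-3 3 were higher (Slc16a3, Pfkm and Ldhb) and 2 lower (Hk2 and Aldoc), against 4.6% and 3.05%. In IL6Myc-4 2 were higher (Hk2 and Aldoc) and 3 lower (Slc16a3, Pfkm and Ldhb), against 5.28% and 4.37%. These were the same 5 genes as in IL6Myc-3 with each direction turned. Each of the 2 lines is part of the mean that the other is set against. Of the 5, Slc16a3 and Ldhb entered the test through the lines in which they were high. The Slc16a3 call was lost in IL6Myc-3 with limma on log2(CPM + 1), and in IL6Myc-4 without replicate 2 of IL6Myc-1. In IL6Myc-5 1 was higher (Slc16a3) and 2 lower (Ldhb and Pdk2), against 4.8% and 3.19%.

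At an adjusted p under 0.05 with no limit on size, the members split unevenly in some lines (edgeR). In IL6Myc-3 20 were lower and 11 higher, where 26.4% and 27.2% of all tested genes were, and in IL6Myc-5 25 were higher and 5 lower, where 28.9% and 25.9% were. In IL6Myc-2 23 were higher and 6 lower (33.4% and 32.2% of all), but 11 higher and 18 lower when libraries were scaled by their totals alone, which moved the median of all genes in that line by -0.28 log2 units. In IL6Myc-4 20 were lower and 9 higher (27.4% and 28.6% of all), and 14 and 13 on library totals. In IL6Myc-1 17 were lower and 11 higher (33.9% and 34.3% of all), and 15 and 14 on library totals. The splits in IL6Myc-3 and IL6Myc-5 were 19 lower and 13 higher, and 24 higher and 6 lower, on library totals.

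All 3 libraries of IL6Myc-3 lay below the other 12 for 14 of 35 members, as they did for 5.14% of all tested genes. These were Slc2a1, Hk2, Pfkp, Aldoa, Aldoc, Tpi1, Gapdh, Pgk1, Pgam1, Eno1, Pkm, Pdk1, Tkt and Rpia, and 3 members lay above (Eno3, Ldhb and Taldo1, against 5.9%). The libraries of IL6Myc-5 lay above all others for Gapdh, Pgk1, Eno1, Ldha and Pdk3, 5 members against 6.41%. They lay below all others for Pdk2 alone (4.99%). Those of IL6Myc-2 lay above for 7 members against 13.8% and below for 1 against 11.2%. In IL6Myc-4 the counts were 4 above (9.05%) and 5 below (6.72%), and in IL6Myc-1 3 above (14.5%) and 7 below (13.5%). On library totals IL6Myc-2 had 1 above (Rpia) and 4 below, IL6Myc-4 6 above and 2 below, IL6Myc-1 5 above and 5 below, IL6Myc-5 7 above and 1 below, and IL6Myc-3 4 above and 10 below, the 10 being among the 14.  

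Between pairs of lines the called members numbered 7 for IL6Myc-3 and IL6Myc-4, where 11.5% of all tested genes were called. They numbered 6 for IL6Myc-1 and IL6Myc-2 (19% of all), IL6Myc-1 and IL6Myc-3 (11.4%), IL6Myc-2 and IL6Myc-4 (14%), IL6Myc-3 and IL6Myc-5 (9.86%) and IL6Myc-4 and IL6Myc-5 (11.3%). There were 5 for IL6Myc-1 and IL6Myc-4 (15.7%), 4 for IL6Myc-2 and IL6Myc-3 (14%), and 3 each for IL6Myc-5 against IL6Myc-1 (14.6%) and against IL6Myc-2 (12.2%). IL6Myc-1 and IL6Myc-2 had the most called genes of any pair, and their share of called members was 17.1%, beside 19% of all. Leaving out each library in turn gave 5 to 6 called members for that pair. For IL6Myc-3 and IL6Myc-4 it gave 6 to 8, so the order of these pairs by called members is not settled.

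Of 56 further genes of these pathways, 39 were tested and 11 of them differed among the lines (28.2%, beside 32.1% of all tested genes). Among those called singly against each other line was Pgam2, the muscle phosphoglycerate mutase, at 215 ± 8.0 CPM in IL6Myc-4 and 49.7 to 95.5 CPM elsewhere. IL6Myc-4, highest in Hk2 and Aldoc, was thus also highest in this muscle-type enzyme. In IL6Myc-2 Ldhd, the D-lactate dehydrogenase, was higher at 2.96 ± 0.368 CPM, and Tktl1, a transketolase relative, lower at 0.280 ± 0.0658 CPM. Gpd1l, a relative of glycerol 3-phosphate dehydrogenase, was higher in IL6Myc-5 at 8.06 ± 0.533 CPM, against 3.67 CPM in IL6Myc-3, 3.25 CPM in IL6Myc-4 and 1 and 2 counts in IL6Myc-1 and IL6Myc-2. It was also called higher in IL6Myc-3 and IL6Myc-4 against a mean that held those few counts.

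Among 30 regulators and hypoxia-responsive genes outside glycolysis, 22 were tested and 10 differed among the lines (45.5%, beside 32.1% of all tested genes). Against the mean of the other lines, 3 were called higher and 0 lower in IL6Myc-5 (4.8% and 3.19% of all tested genes) and 0 higher and 3 lower in IL6Myc-4 (5.28% and 4.37%). In each of IL6Myc-1, IL6Myc-2 and IL6Myc-3, 2 were higher and 1 lower. The shares of all tested genes were 4.39% and 8.11% in IL6Myc-1, 8.6% and 4.08% in IL6Myc-2, and 4.6% and 3.05% in IL6Myc-3. Arnt, which encodes the shared partner of the hypoxia-inducible factors, was at 177 ± 8.74 CPM in IL6Myc-5 and 51.8 to 74.1 CPM elsewhere (log2 difference 1.57 ± 0.03, edgeR adjusted p = 1.17e-15). Egln3, an oxygen-sensing hydroxylase, had 0 counts in IL6Myc-1, and Ndrg1, a stress-responsive gene, was at 0.263 ± 0.0789 CPM in IL6Myc-4, below each other line. Egln1, the main oxygen sensor, was at 25.4 CPM in IL6Myc-2 with 0 counts in the other lines. Myc and Hif1a did not reach the size threshold, with Myc between 1028 ± 42.9 CPM (IL6Myc-3) and 1526 ± 60.0 CPM (IL6Myc-2), and Hif1a at 26.8 to 36.4 CPM.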

How the data were processed

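Per the labels' protocols, RNA was isolated with an RNeasy mini kit and libraries were prepared with TruSeq Stranded Total RNA. The submitters' processing notes name Trim Galore 0.4.0, GRCm39 and DESeq2 (no version). No aligner, quantifier or annotation is named (not given in the sources used here). Although the deposited table is named for TPM, its values were treated as estimated counts, because library sums range from 19068543 to 41165599 and 30.8% to 54.3% of the values above 0 and under 1.5 lie within 0.02 of 1. If the quantifier had corrected them for transcript length, that correction would be carried into the levels.

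The estimated counts were rounded to whole numbers. The 11773 of 32434 entries that reached 1 CPM in 3 or more libraries were scaled by TMM (factors 0.848 to 1.08) and fitted in edgeR 4.0.16 (R 4.3.3) to all 15 libraries with the line as factor. Calls needed a Benjamini-Hochberg adjusted p under 0.05 over all tested genes and a log2 difference of 1 or more in either direction, and "singly" means against each of the other 4 lines. Libraries of a line were not duplicates of each other, their chi-square over degrees of freedom being 4.51 to 19.6, and were kept as 3 replicates. Full values were given for the members called in any line-against-rest comparison, and other pathway genes were named where called singly. Myc and Hif1a, and those members described by rank alone, were named outside that rule. The members and lists were chosen with earlier results of these data known. The fit was tested on simulated data. Alternatives were RLE factors, DESeq2 1.42.0, limma 3.58.1 on log2(CPM + 1), a filter at 5 CPM, no filter, immunoglobulin genes left out before TMM, a replicate block and leaving out each library. Scaling by library totals, and the counts at any size and of libraries with no overlap under other settings, were added after seeing the data. Some items are not reported here.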

Additional observations from a re-analysis of the deposited data

How the results depend on the processing

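Depth limits the genes with few counts, Slc16a3 in 2 lines, Ldhb in IL6Myc-4 and Eno2, and the libraries are technical replicates whose number of cultures the labels do not give. The replicate numbers did not pair the libraries (same-number correlations -0.08 to 0.11, with 7 of 15 libraries correlating best with their own number). With the number as a block, 14 members were called among the lines and 3, 3, 5, 5 and 3 in IL6Myc-1 to IL6Myc-5, as without it. Leaving out each library in turn gave 13 to 15 members among the lines. Of 437 recomputed differences of named members, 432 kept their direction and their side of the threshold. The others were Slc16a3 in IL6Myc-3 with limma on log2(CPM + 1), which turned to -0.0089 (adjusted p = 0.936), the call of Slc16a3 in IL6Myc-4 without replicate 2 of IL6Myc-1, Pdk2 in IL6Myc-5 (-0.93 with limma, -0.87 without replicate 3 of that line) and Rpia in IL6Myc-2 on library totals (0.94). Counts of called members all stayed within 1.5 times. On library totals, 11 members were higher in IL6Myc-2 at any size, and libraries lay outside all others for 5 members above in IL6Myc-1, 1 above and 4 below in IL6Myc-2 and 2 below in IL6Myc-4. Summed lower glycolysis was then 9401, 8329, 7423 and 8870 CPM in IL6Myc-1 to IL6Myc-4, which put IL6Myc-2 below IL6Myc-1 and IL6Myc-4. Of 180 line means of the members, 113 moved by more than 1 SD on library totals and 1 with RLE factors. With 2 CPM added in place of 0.5, Pfkm over Pfkl was -5.27, -3.75, -3.11, -5.19 and -4.39 in IL6Myc-1 to IL6Myc-5, Ldhb over Ldha -8.06, -7.49, -8.55 and -8.69 in IL6Myc-1, IL6Myc-2, IL6Myc-4 and IL6Myc-5, and Pdk3 over Pdk1 -3.83 in IL6Myc-1 and -1.49 in IL6Myc-4. With 0.1 CPM added they were -5.79 for Pfkm over Pfkl in IL6Myc-4, -11.27 and -10.05 for Ldhb over Ldha in IL6Myc-4 and IL6Myc-5, and -4.08 for Pdk3 over Pdk1 in IL6Myc-1. These shifts follow from the added value where a gene is low.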
